A study of Homo sapiens with 8 samples.

Results

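The EGR and NR4A immediate early transcription factors, together with the NAB corepressors that bind EGR proteins, were followed in HEK293, an established line derived from human embryonic kidney. The group was defined by gene symbol and held 9 genes out of 58440 in the count table: EGR1, EGR2, EGR3, EGR4, NAB1, NAB2, NR4A1, NR4A2 and NR4A3. The study profiled polyA RNA in 8 samples, of which 4 came from cells with a stable HTR1E transgene and 4 from control cells, and each set had 2 samples given serotonin and 2 given no ligand. HTR1E encodes the 5-HT1E receptor for serotonin, which signals through G proteins that lower cyclic AMP. All samples carried the label of 3 h without serum, and the serotonin samples received 1 µM serotonin for 1 h. The promoter of the transgene, the number of clones and the nature of the control line are not given in the sources used here, and nothing says that the paired samples were separate cultures, so the p-values below measure only the spread between these samples.

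The columns of the table carry the treatment as a word and, beside it, the letter A or B, with or without an added R, and the labels do not say which letter belongs to which line. Libraries are therefore named here by those letters and described by their measured receptor level. HTR1E stood at 221 and 226 normalized CPM, counts scaled to library size, in the A serotonin libraries and at 175 and 181 CPM in the A no-ligand libraries. It stood at 0.244 and 0.503 CPM in the B and BR serotonin libraries and at 0 in both B-set no-ligand libraries, where a floor of 3 counts corresponded to 1.73 and 0.330 CPM. The 4 A-set libraries averaged 201 ± 26.4 CPM and the 4 B-set libraries 0.187 ± 0.240 CPM (SD, n = 4 each). Below, "A" means both libraries of the A set, which were HTR1E-high, and "B" both of the B set, which were HTR1E-low; pairs of values give the library named by the letter alone first. Where 1 library of the B set is meant, it is called the B or the BR library.

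Total counts ranged between 2604885 and 9072278 per library, and 20245 to 26956 genes had at least 1 count. The B no-ligand library stood apart, with the fewest counts and 54.4% of them on mitochondrial genes, and the BR serotonin library followed with 36.3%. The other 6 libraries held between 17.9% and 24.6%. Correlation between the log CPM of the libraries of a group was lowest, at 0.894, for the B no-ligand pair. All 7 genes chosen as typical of HEK293 (PAX2, NEFL, NEFM, INA, VIM, KRT18 and CDH2) had counts in every library, summing to 561 to 760 CPM. Of these PAX2 alone passed in a comparison, lower in A after serotonin. Of 6 markers of other cell types, the blood cell gene PTPRC was at 0 in every library, and the collagen gene COL1A1 had 12.1 to 43.9 CPM, lowest in both B no-ligand libraries. The summed level of the 6 was 28.5 to 29.7 CPM in A serotonin, 30.3 to 33.8 CPM in A no-ligand, 29.4 to 47.2 CPM in B serotonin and 12.99 to 13.8 CPM in B no-ligand libraries, and its part in the results below was not tested. In bulk RNA, fewer cells making a transcript and less of it per cell cannot be told apart.

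**Figure D1:**
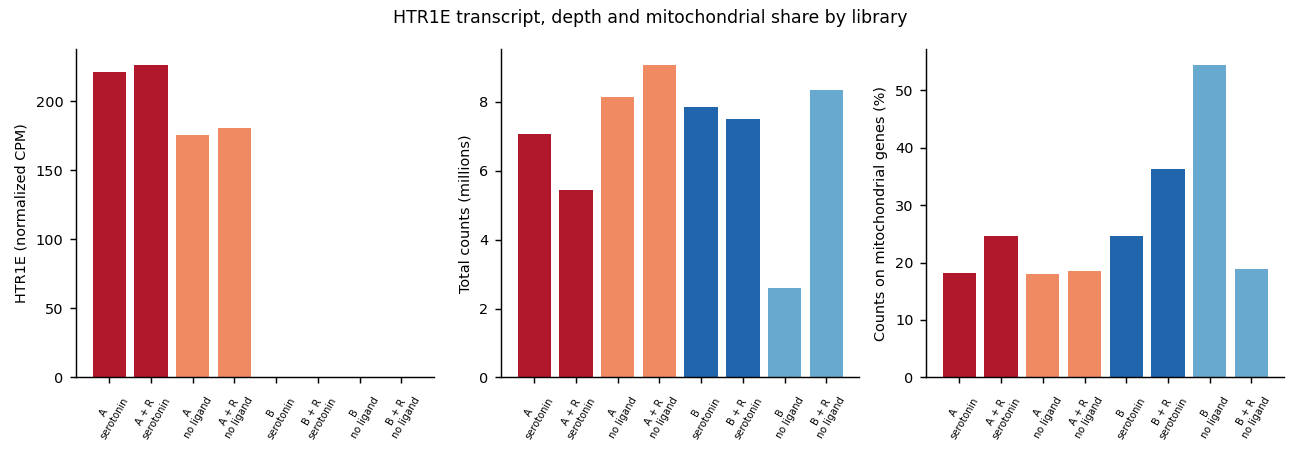
HTR1E level in normalized CPM, total counts and the percentage of counts on mitochondrial genes, 1 bar per library, with A-set libraries in red tones and B-set libraries in blue tones (+ R marks a name with the added R). HTR1E was at 175 CPM or more in every A-set library and at 0.503 CPM or less in every B-set library, and the B no-ligand library had the fewest counts and a mitochondrial share of 54.4%.

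EGR1 to EGR4 are zinc finger transcription factors that bind GC-rich sites and whose transcripts appear within minutes of a growth or neuronal signal, classically through ERK, which activates ELK proteins bound beside serum response factor (SRF) at CArG boxes. NAB1 and NAB2 bind EGR proteins, recruit the NuRD deacetylase complex and restrain transcription by EGR factors, and NAB2 is itself inducible. NR4A1 (Nur77), NR4A2 (Nurr1) and NR4A3 (NOR1) are orphan nuclear receptors that act without a classical ligand and are controlled mainly by how much of them is made, with induction by cyclic AMP through CREB and by calcium through MEF2. The study's design text names ERK signalling and the cyclic AMP and CREB pathway as its interests.

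The 9 genes spanned a wide range of abundance. On the RPKM scale, which divides by exon length as well as library size, and averaged over the 8 libraries, NAB1 was highest at 8.47, followed by NR4A2 at 5.83, NR4A1 at 4.99, NAB2 at 4.16 and EGR1 at 2.57. NR4A3 averaged 0.312 RPKM, EGR3 0.205, EGR2 0.0992 and EGR4 0.0320. The order depended on the condition: in B serotonin libraries NR4A2 (16.8 ± 0.382 RPKM) and NR4A1 (13.2 ± 1.62) both stood above NAB1 (10.05 ± 0.246; SD, n = 2 each). In the 3 other groups NAB1 was above both, with NR4A1 at 2.90 ± 0.604 RPKM in A serotonin, 1.72 ± 0.198 in A no-ligand and 2.17 ± 0.0587 in B no-ligand libraries. A filter on low counts kept 17144 genes for testing and 7 of the 9 members. EGR2, with 21 counts over all libraries, and EGR4, with 5, did not pass it.

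Matches to short motifs were looked for in the 250 bases before each RefSeq start (GRCh38.p14) on both strands. The table of windows held 7 of the 9 genes with 12 starts; EGR3 and NR4A2 are named only. The core TGACG of the cyclic AMP response element, which CREB family proteins read, lay in 6 windows of 5 genes (EGR1, EGR2, EGR4, NAB1 and NR4A3), against 21.2% of all 35116 windows. EGR1, EGR2 and EGR4 had 2 matches each in 1 window, and 4.76% of all windows had 2 or more. NR4A3 had 4, and 0.236% of all windows had 4 or more. The full element TGACGTCA was in none of these windows and in 1.65% of all. The CArG box, where SRF binds, matched in the EGR1 window at 2 places and in 1 EGR2 window at 1 place, and 1.16% of all windows had at least 1. The windows of EGR1 and NR4A3 are shown because they carry the largest numbers of CArG box and core matches in the group, read 5′ to 3′ on the plus strand, with CArG boxes and cores in capitals (CGTCA is the core read on the other strand). The EGR1 window lies at chr5:138465229-138465478, and the NR4A3 stretch, at chr9:99821635-99821854, leaves out the last 30 bases of its window, which hold the remaining core.
EGR1: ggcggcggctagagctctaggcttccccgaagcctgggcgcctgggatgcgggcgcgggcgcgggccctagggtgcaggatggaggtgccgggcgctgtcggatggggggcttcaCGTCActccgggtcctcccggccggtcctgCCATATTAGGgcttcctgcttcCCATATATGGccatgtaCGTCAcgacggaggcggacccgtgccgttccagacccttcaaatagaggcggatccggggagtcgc
NR4A3: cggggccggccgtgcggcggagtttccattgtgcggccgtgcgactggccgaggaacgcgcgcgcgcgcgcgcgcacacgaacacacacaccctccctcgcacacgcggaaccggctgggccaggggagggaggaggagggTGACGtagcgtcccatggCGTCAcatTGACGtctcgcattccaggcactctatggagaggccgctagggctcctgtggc

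In the EGR1 window the cores covered bases -135 to -131 and -66 to -62 before the start, on either side of CArG boxes at -105 to -96 and -83 to -74. In NR4A3 the cores began at -109, -91, -83 and -25. The EGR binding motif GCGGGGGCG was present in windows of NAB1 and NAB2 and in 4.72% of all windows, and the form GCGTGGGCG was present in 1 NAB1 window and in 0.72% of all. The element AAAGGTCA, which NR4A monomers bind, was found in none of the 12 windows and in 1.05% of all. Both NR4A1 windows, at chr12:52022582-52022831 and chr12:52037465-52037714, held none of these motifs, and GENCODE release 29 lists further NR4A1 starts that were not searched. These matches are descriptions of letters, not of factor binding.

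**Figure D2:**
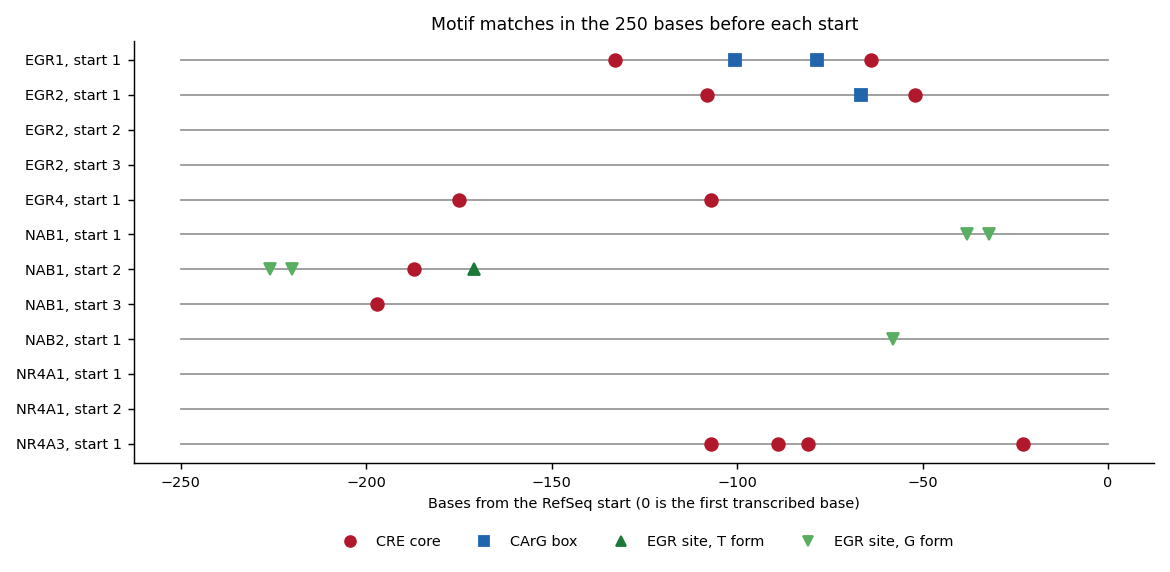
Motif matches in the 250 bases before each RefSeq start, 1 line per start, with distance from the start in bases on the x axis and each marker at the centre of a match. EGR1 carried 2 CArG boxes between 2 cores, NR4A3 carried 4 cores, and neither NR4A1 line has a marker; the NAB1 windows of starts 1 and 2 overlap, so their pairs of EGR sites are the same bases.

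NR4A1 and NR4A2 rose with serotonin in the B libraries, where HTR1E was nearly absent, and no member passed in the A libraries, where HTR1E was high. The 2 genes encode nuclear receptors of the same family. NR4A1, the gene of Nur77, lies on the plus strand of chromosome 12 from 52022832 to 52059507 (hg38). It had 87.7 and 104 CPM in B and BR serotonin libraries, against 16.1 and 15.5 CPM in B and BR no-ligand libraries, from 718, 623, 28 and 141 raw counts in that order. Both serotonin libraries lay far above both no-ligand libraries, and the fitted difference was 2.61 on the log2 scale (SE 0.28, 95% interval 1.98 to 3.23), a fold of 6.08 (edgeR adjusted p = 0.0205). NR4A2, the gene of Nurr1, which dopamine neurons need, lies on the minus strand of chromosome 2 from 156324432 to 156342348. It had 65.7 and 67.8 CPM in B and BR serotonin libraries, against 13.2 and 8.48 CPM in B and BR no-ligand libraries. The groups did not overlap, and the difference was 2.71 (SE 0.31, 95% interval 2.03 to 3.39), a fold of 6.53 (edgeR adjusted p = 0.0205). Here and below, groups of 2 libraries often separate by chance, and the share of all genes that did so was not counted.

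These were the only 2 of the 17144 tested genes that passed an adjusted p of 0.05 in the B set (0.0117%), and they ranked 1 and 2 by p. In all, 4542 genes (26.5%) had an unadjusted p under 0.05, and DESeq2 called 1599 of 14817 genes (10.8%) with NR4A1, NR4A2 and NAB2 among them. The adjusted p of both genes depended on which libraries were in the fit. It was 0.255 for each without the BR serotonin library and between 0.0507 and 0.0645 without any 1 A-set library, although their log2 difference stayed between 2.36 and 2.97 in every fit with 1 library left out. Without both libraries of high mitochondrial share, which leaves 1 library a group in the B set assumed to vary like the A libraries, the log2 difference was 2.49 for NR4A1 and 2.94 for NR4A2, and both passed.

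In the A libraries, where HTR1E was high, NR4A1 had 24.3 and 18.0 CPM with serotonin, against 13.6 and 11.5 CPM without ligand. The groups did not overlap, and the log2 difference was 0.76 (SE 0.27, 95% interval 0.17 to 1.35; edgeR unadjusted p = 0.0162, adjusted p = 1). NR4A2 had 8.80 and 8.69 CPM with serotonin, against 7.15 and 5.22 CPM without ligand, a log2 difference of 0.50 (95% interval -0.16 to 1.16; edgeR adjusted p = 1). Neither passed, and no gene did: 0 of 17144 (0%) were called by edgeR and 0 by DESeq2, and 62 (0.362%) had an unadjusted p under 0.05. NR4A1 ranked 8 by p in that comparison and EGR1 ranked 6. All 8 libraries shared 1 estimate of spread, so the spread in B entered these p-values too. In the fit to the 4 A libraries alone, the unadjusted edgeR p was 0.00261 for EGR1 and 0.00289 for NR4A1, and 0 genes passed. Not passing in A does not show a lack of response.

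**Figure D3:**
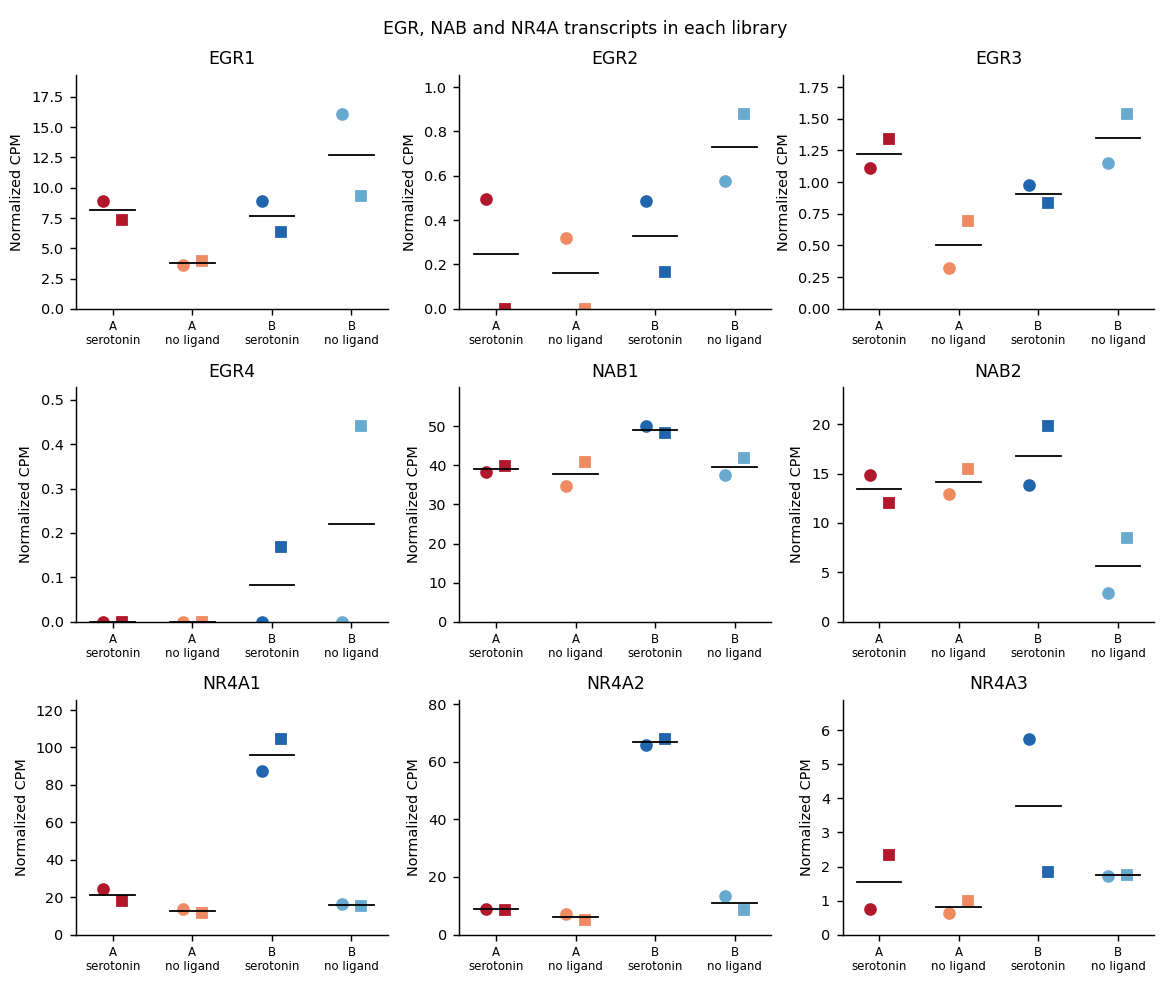
Normalized CPM of the 9 genes in each library, with circles for libraries named by the letter alone, squares for those with the added R and a line at each group's mean of 2. NR4A1 at 87.7 and 104 CPM and NR4A2 at 65.7 and 67.8 CPM in B serotonin libraries stand above the 6 other libraries, while EGR1 is lowest in the A no-ligand libraries.

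The third receptor, NR4A3, on the plus strand of chromosome 9 from 99821855 to 99866891, was much scarcer. It had 5.74 and 1.84 CPM in B and BR serotonin libraries, against 1.73 and 1.76 CPM in B and BR no-ligand libraries, from 47, 11, 3 and 16 raw counts. The B serotonin library was the high one and BR serotonin lay close to the no-ligand level. Its log2 difference of 1.13 had a 95% interval of -0.50 to 2.77 (edgeR adjusted p = 0.347). In the A set it had 0.74 and 2.34 CPM with serotonin, against 0.64 and 0.98 CPM without ligand, and the groups overlapped (log2 difference 0.86, 95% interval -0.86 to 2.57).

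EGR1, the best known member of the EGR family, lies on the plus strand of chromosome 5 from 138465490 to 138469315. It had 8.92 and 7.35 CPM in A serotonin libraries, against 3.63 and 3.94 CPM in A no-ligand libraries, from 72, 44, 34 and 40 raw counts. Both serotonin libraries were above both no-ligand libraries, and the log2 difference was 1.10 (SE 0.38, 95% interval 0.26 to 1.94), which did not pass (edgeR unadjusted p = 0.0145, adjusted p = 1). In the B set the order was the other way, at 8.91 and 6.37 CPM with serotonin and 16.1 and 9.36 CPM without ligand. The groups did not overlap there either, and the log2 difference of -0.65 did not pass (95% interval -1.50 to 0.19; edgeR adjusted p = 0.294). The highest EGR1 value came from the B no-ligand library, which had 28 EGR1 counts and the mitochondrial share of 54.4%. The log2 difference in B was -0.28 without that library and -1.03 without the BR no-ligand library, and passed in neither fit.

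EGR3, on the minus strand of chromosome 8, had 1.11 and 1.34 CPM in A serotonin libraries, against 0.32 and 0.69 CPM in A no-ligand libraries. In the B set it had 0.98 and 0.84 CPM with serotonin, against 1.152 and 1.54 CPM without ligand. These values rested on 2 to 14 counts a library, and the log2 differences of 1.23 in A and -0.63 in B had 95% intervals of -0.37 to 2.83 and -2.26 to 0.99. EGR2, a regulator of Schwann cell myelination, on the minus strand of chromosome 10 from 62811996 to 62919900, had 0 to 8 counts in any library, and its highest values, 0.576 and 0.881 CPM, came from the B and BR no-ligand libraries. EGR4, on the minus strand of chromosome 2 from 73290929 to 73293705, had 1 count in BR serotonin, 4 in BR no-ligand and 0 in the other 6 libraries. At this depth a difference in EGR2 or EGR4 was not detectable, since 3 counts corresponded to 0.295 to 1.73 CPM across libraries.

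NAB2, an inducible partner of EGR1 on the plus strand of chromosome 12 from 57088894 to 57095476, had 13.8 and 19.8 CPM in B and BR serotonin libraries, against 2.88 and 8.48 CPM in B and BR no-ligand libraries. The groups did not overlap, and the log2 difference was 1.34 (SE 0.40; edgeR adjusted p = 0.0916, DESeq2 adjusted p = 0.0405). The lowest of these values rested on 5 counts in the B no-ligand library, and without that library the log2 difference was 0.98. Without the BR no-ligand library it was 2.56, in a fit that left the B no-ligand library alone in its group. The median log2 difference of all genes in that fit was 0.15. In the A set NAB2 had 14.9 and 12.03 CPM with serotonin, against 12.9 and 15.5 CPM without ligand, with a log2 difference of -0.07 (95% interval -0.88 to 0.74). NAB1, the constitutive relative, on the plus strand of chromosome 2 from 190646746 to 190692766, varied least, between 34.6 and 49.9 CPM over the 8 libraries. Its log2 difference with serotonin was 0.06 in A (95% interval -0.48 to 0.59) and 0.30 in B (95% interval -0.24 to 0.84).

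**Figure D4:**
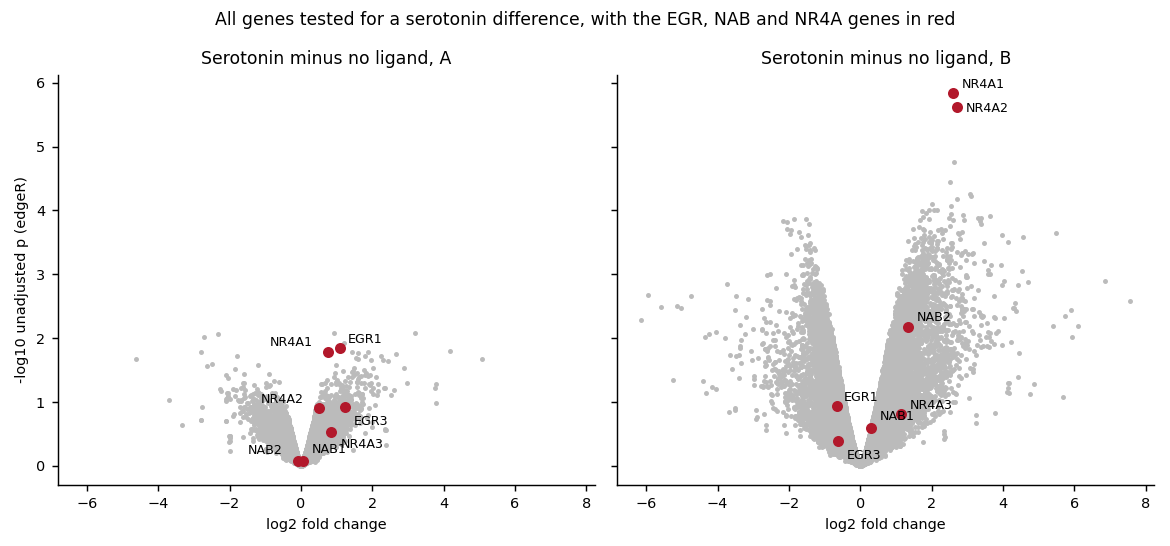
Log2 fold change with serotonin against the negative log10 of the unadjusted edgeR p for 17144 genes in the A set (left) and the B set (right), with the 7 tested EGR, NAB and NR4A genes in red. NR4A1 and NR4A2 sit at the top of the B panel at log2 2.61 and 2.71, and in the A panel EGR1 (1.10) and NR4A1 (0.76) are among the highest points without passing the adjusted threshold.

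Seen over the whole group, 6 of the 7 tested members had a log2 difference above 0 with serotonin in A and 5 of 7 in B. The members' median log2 difference was 0.76 in A, where all tested genes had a median of -0.02, and 1.13 in B, where all tested genes had 0.01. Whether the responses differed was tested directly as the A response minus the B response. No gene passed in that test with edgeR (0 of 17144, 0%), although 2564 (15%) had an unadjusted p under 0.05. The difference was -1.85 for NR4A1 (SE 0.39, 95% interval -2.69 to -1.001) and -2.21 for NR4A2 (SE 0.43, 95% interval -3.15 to -1.26), each with an edgeR adjusted p of 0.302. NR4A2 ranked 3 and NR4A1 ranked 7 by p among all tested genes. DESeq2 called 70 of 14485 genes (0.483%), with NR4A2 (adjusted p = 0.0364) and NR4A1 (adjusted p = 0.0472) among them. For EGR1 the difference was 1.76 and did not pass (SE 0.54, 95% interval 0.57 to 2.95; edgeR adjusted p = 0.302). Without the BR no-ligand library 3482 genes passed, with EGR1, NAB2, NR4A1 and NR4A2 among them (edgeR adjusted p between 0.0101 and 0.0150).

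Between the sets after serotonin, NR4A1 and NR4A2 were lower in A. NR4A1 averaged 21.2 ± 4.41 CPM in A serotonin and 96.0 ± 11.8 CPM in B serotonin libraries (SD, n = 2 each), a log2 difference of -2.18 (SE 0.27; edgeR adjusted p = 0.00211). NR4A2 averaged 8.74 ± 0.0761 CPM in A serotonin and 66.8 ± 1.52 CPM in B serotonin libraries, a log2 difference of -2.93 (SE 0.30; edgeR adjusted p = 0.000649). Of the 17144 genes, 900 (5.25%) passed in this comparison and 500 (2.92%) were lower in A, so 2 of 7 members lower compares with that share. NR4A2 passed in every fit with 1 library left out, and NR4A1 in all but the fit without 1 of the A serotonin libraries, the one with the added R, where its adjusted p was 0.0510. NR4A3 was at 0.74 and 2.34 CPM in A and 5.74 and 1.84 CPM in B, and its difference of -1.36 did not pass. The EGR1 levels overlapped, at 8.92 and 7.35 CPM in A and 8.91 and 6.37 CPM in B (log2 difference 0.09, 95% interval -0.73 to 0.90).

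Without ligand the sets differed most in EGR1, and 0 of 7 members passed with edgeR, against 415 genes (2.42%) overall; 3 of 7 members had an unadjusted p under 0.05, against 3292 genes (19.2%). DESeq2 called 1 member, EGR1, and 841 of 16146 genes (5.21%). EGR1 averaged 3.78 ± 0.218 CPM in A and 12.7 ± 4.79 CPM in B no-ligand libraries (SD, n = 2 each), a log2 difference of -1.67 (SE 0.40, 95% interval -2.54 to -0.80; edgeR adjusted p = 0.0527, DESeq2 adjusted p = 0.0154). It was -1.35 without the B no-ligand library and -2.04 without the BR no-ligand library. The latter fit left the B no-ligand library alone in its group, and the median log2 difference of all genes was 0.17. EGR3 had a difference of -1.46 with a 95% interval of -3.12 to 0.21. NAB2 had a difference of 1.11, which did not pass (SE 0.40; edgeR adjusted p = 0.173). It was 0.70 without the B no-ligand library and 2.34 without the BR no-ligand library. NR4A1 was at 13.6 and 11.5 CPM in A and 16.1 and 15.5 CPM in B (log2 difference -0.33, 95% interval -0.95 to 0.29), and NR4A2 was at 7.15 and 5.22 CPM in A and 13.2 and 8.48 CPM in B (log2 difference -0.72; edgeR adjusted p = 0.244).

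**Figure D5:**
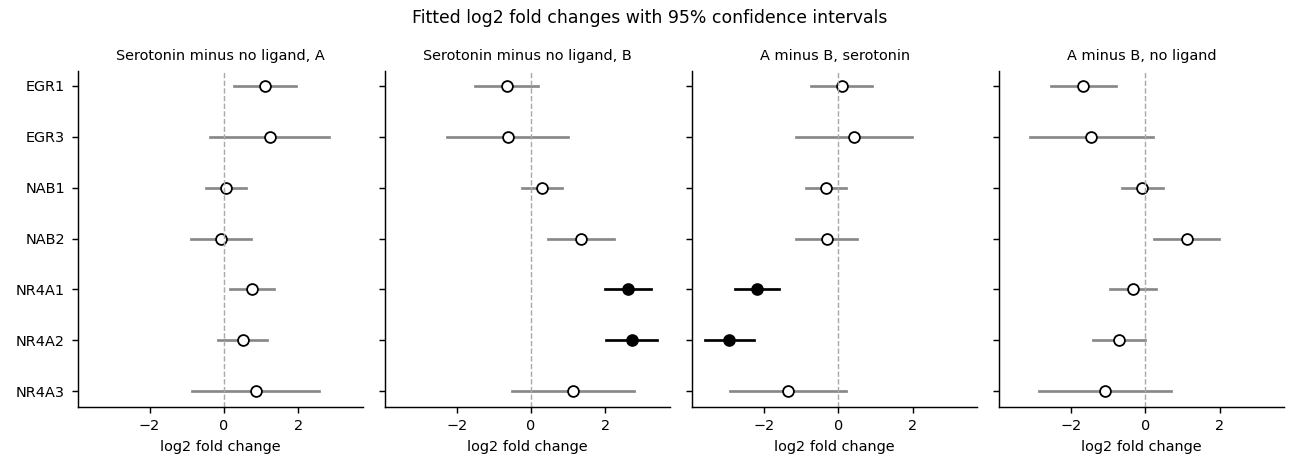
Fitted log2 fold changes with 95% confidence intervals for the 7 tested genes in 4 comparisons, filled where the edgeR adjusted p was under 0.05. NR4A1 and NR4A2 are filled at 2.61 and 2.71 for serotonin in B and at -2.18 and -2.93 for A minus B after serotonin, and no gene is filled in the other panels.

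Across the 8 libraries NR4A1 and NR4A2 had a Pearson correlation of log CPM of 0.970, while NR4A1 had 0.161 with EGR1 and 0.406 with NAB2. These are descriptions over 8 libraries that differ in depth and treatment. The genes whose pattern was most like NR4A1 were ENSG00000267605, which had no symbol, (r = 0.980), RFPL3S (0.968), AGPAT3 (0.967), ZNF814 (0.963) and MYO1H (0.959). Those most like EGR1 were ZC3H8 (r = 0.962), TFCP2 (0.953), ETV5 (0.947), DSTYK (0.945) and RASGRP1 (0.942). The highest value of each of these genes came from the B no-ligand library, as did that of EGR1 at 16.1 CPM. That library had the fewest counts, and the correlations were not computed without it. ETV5 is an ETS factor that ERK signalling is known to raise, and its level ranged between 9.35 and 29.9 CPM.

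The genes upstream, downstream and beside the group were read from lists of known pathway members, chosen with earlier results of these data known. None of them passed in either serotonin comparison or in the difference of responses. All 14 genes of the route from ERK to SRF and ELK were tested, and 0 passed in any of the 5 comparisons; their median log2 difference with serotonin was -0.01 in A and -0.42 in B. All 16 genes of the CREB and MEF2 route were tested and 0 passed, with medians of 0.06 in A and -0.24 in B. The same held for the 13 NuRD genes that NAB proteins recruit, and for the 2 of 3 RXR genes, partners of NR4A1 and NR4A2, that had enough counts. At an unadjusted p under 0.05 with serotonin in B, 5, 6, 3 and 0 of these genes stood out in the order given, against 26.5% of all genes.

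Among 25 other immediate early genes, the median log2 difference with serotonin was -0.09 in A and 0.33 in B, and none passed. This list too was chosen with earlier results of these data known, so its shares beside those of all genes are descriptions only. At an unadjusted edgeR p under 0.05, 10 of the 25 stood out with serotonin in B, against 26.5% of all genes. Most of these were higher with serotonin and some were lower. In A it was 1 of the 25, against 0.362% of all genes. After serotonin 6 of the 25 were lower in A than in B, against the 2.92% of all genes that were lower, and 0 were higher. They were ARC, a synaptic plasticity gene, DUSP6, the phosphatase that switches off ERK, the AP-1 subunits FOSB, FOS and JUN, and ZFP36, which destabilises cytokine transcripts. ARC had 3.47 and 4.84 CPM in A serotonin, against 44.2 and 42.0 CPM in B serotonin libraries, a log2 difference of -3.38 (edgeR adjusted p = 0.000376). DUSP6 had 11.1 and 7.69 CPM in A serotonin, against 57.3 and 54.4 CPM in B serotonin libraries (log2 difference -2.56; edgeR adjusted p = 0.00114). The differences were -1.90 for FOSB and -1.10 for JUN. The edgeR adjusted p of FOS, JUN and ZFP36 lay between 0.0452 and 0.0491, close to the threshold. ARC and DUSP6 were lower in A without ligand too, by log2 differences of -2.40 and -2.24. The differences without ligand were -1.76 for FOSB (edgeR adjusted p = 0.0539), -1.23 for FOS, -0.38 for JUN and -0.13 for ZFP36, and none of these passed. Neither ARC nor DUSP6 passed for serotonin in B, at 0.74 for ARC and 0.20 for DUSP6. NR4A1 and NR4A2 passed for serotonin in B and not between the sets without ligand.

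Of 16 reported EGR1 targets 15 were tested, with a median log2 difference with serotonin of 0.02 in both sets. Without ligand 1 of the 15 was lower in A, against 155 of all 17144 genes. It was ARC, which is also on the immediate early list. After serotonin 2 of the 15 were lower in A, against 2.92% of all genes. They were ARC and MMP14, a membrane-bound metalloproteinase. MMP14 had 3.22 and 3.17 CPM in A serotonin, against 10.4 and 10.9 CPM in B serotonin libraries (log2 difference -1.73; edgeR adjusted p = 0.0298). Without ligand the MMP14 difference, A against B, was 0.55 and did not pass (edgeR adjusted p = 0.489). EGR1 was at overlapping levels in the 4 serotonin libraries, and its part in these differences was not tested.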

How the data were processed

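The deposited table held raw counts of read pairs per gene for 8 libraries. Counting was done by the authors with featureCounts, in reverse-stranded paired mode on GENCODE release 28, per the file headers, and the alignment file names carry the words cutadapt and markdups. The submitters' processing notes name hg38, cutadapt 3.4, FastQC 0.11.9, Bowtie2, STAR 2.7.8a, SAMtools 1.12 and Subread 2.0.1, without roles. Of 58440 gene IDs, 57799 matched a symbol.

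Columns were grouped by the treatment word and by the first letter of their names. Genes kept by filterByExpr were fitted together over 8 libraries with edgeR 4.0.16 in R 4.3.3 (TMM factors, quasi-likelihood test, Benjamini-Hochberg over all tested genes, adjusted p under 0.05, prior count 2), with 4 residual degrees of freedom and 5 comparisons. CPM values use TMM-scaled library sizes, and RPKM divides by exon length; counting floors cover counting error only. DESeq2 1.42.0, RLE factors, no filter, replicate blocks, fits to 4 libraries and fits with libraries left out were the alternatives; leaving out mitochondrial genes, or both libraries rich in them, was added after seeing the data. The test was checked on simulated data. All 9 members are named, with up to 4 list genes called by smallest p in a comparison, and the 5 genes most correlated with EGR1 and with NR4A1; FOS and ZFP36, PAX2 and COL1A1 were named after their values were seen. The members and lists were chosen with earlier results of these data known. Promoter windows came from RefSeq (GRCh38.p14).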

Additional observations from a re-analysis of the deposited data

Results flagged for a closer look

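EGR1 and EGR3 were set aside for a closer look because every A-set serotonin library lay above the A-set no-ligand libraries while every B-set serotonin library lay below the B-set no-ligand libraries. The A response minus the B response was 1.76 on the log2 scale for EGR1 and 1.87 for EGR3. That difference was tested and did not pass in either gene (edgeR adjusted p = 0.302 for EGR1 and 0.392 for EGR3). Groups of 2 libraries often separate by chance, and the share of all tested genes with this pattern was not counted. For EGR1 the nearest B-set values were 8.91 CPM in the B serotonin and 9.36 CPM in the BR no-ligand library, from 73 and 85 counts. The B no-ligand value of 16.1 CPM came from 28 counts in the library with a mitochondrial share of 54.4%. The EGR3 values rested on 2 to 14 counts a library.

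EGR4 was set aside because 1 library stood alone in each treatment, counting the 4 libraries of a treatment as 1 group. In the serotonin libraries BR had 1 count, 0.168 CPM, and the other 3 had 0. In the no-ligand libraries BR had 4 counts, 0.440 CPM, and the other 3 had 0. The gap to the nearest library was the whole range in both cases, a ratio of 1. The rule is set to pick out about 5% of groups by chance, and 18 groups were looked at. With 3 libraries at 0, any count in the other library gives a ratio of 1, so that rate does not hold for EGR4.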

How the results depend on the processing

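Of 533 member values under 16 alternatives, 488 kept their direction and their side of the threshold, 11 lost the call, 21 gained one and 13 changed sign. Most values had no call to lose. For serotonin in B, NR4A1 and NR4A2 were each called under 11 of 16 alternatives. The number of members passing for serotonin in B was 2, and 3 with DESeq2, without the filter and with the block by pair; with 1 library left out it ran from 0 to 3. For the difference of responses it was 0, against 2 with DESeq2, 2 without the filter, 2 with the block by pair and 1 without both libraries of high mitochondrial share, and 0 to 4 with 1 library left out (4 without BR no ligand). Without ligand, A against B gave 0, against 1 with DESeq2, 1 without the filter and 1 without both libraries of high mitochondrial share, and 0 to 2 with 1 library left out (2 without BR no ligand). After serotonin it ran from 1 (without the A serotonin library with the added R) to 2, and was 3 without both libraries of high mitochondrial share. For serotonin in B, 1599 of 14817 genes passed with DESeq2, 1830 of 35617 without the filter and 2218 of 17144 with the block by pair. With edgeR as described above it was 2 of 17144. For the difference of responses these were 70 of 14485, 570 of 35617 and 250 of 17144, against 0 of 17144. Without ligand, 841 of 16146 genes passed with DESeq2 and 1117 of 35617 without the filter. The cause of these changes was not tested.

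The replicate block over all libraries left the members called at 2 for serotonin in B and 0 in A. Whether the same suffix pairs the samples could not be told. The deviations of same-suffix libraries correlated at 0.00 in A and 0.15 in B, and at -0.46 to 0.09 across the sets. With 2 libraries a group, each deviation reflects a single difference between libraries, including any in their quality. With the block by pair, 2218 genes passed in B. NR4A3 changed sign in the difference with that block (0.041), and EGR1 between the sets after serotonin without both libraries of high mitochondrial share (-0.13).

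With 1 library left out, values that crossed 0 ran from -0.26 to 0.062 for NAB2, -0.14 to 1.48 for NR4A3 and -0.073 to 0.17 for NAB1 with serotonin in A, from -1.27 to 0.80 for NR4A3 in the difference, from -0.20 to 0.053 for NAB1 without ligand and from -0.13 to 0.33 for EGR1 after serotonin. Genes called for serotonin in B numbered 2, against 0 without any 1 A library or BR serotonin, 1053 without B serotonin, 261 without B no ligand and 4846 without BR no ligand, and 1830 without the filter, 9 in the fit to 4 libraries and 84 without both libraries. Genes called were 415 between the sets without ligand (60 to 3693; DESeq2 841, no filter 1117, block 268, 4 libraries 15, both out 1542) and 900 after serotonin (83 to 3347; 1515, 1985, 480, 2312 and 1850 in that order). In the difference the counts were 0 to 3482, with 570 without the filter, 250 with the block by pair and 7 with both out. Leaving out BR no ligand moved the median of all genes by over 0.1, as did dropping the filter in the difference. Depth limits EGR2, EGR3, EGR4 and NR4A3.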
